A study of Mus musculus with 6 samples.

Results

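The subject is a set of 43 mouse genes under parental imprinting, measured by RNA-seq in newborn cerebellum (postnatal day 0) after conditional deletion of the transcription factor gene Zeb2 and in controls. The genes were chosen by symbol as imprinted in mouse, and the rule used no measured value. All 43 symbols were found among the 23793 loci of the deposited table, each at a locus of its own. The cKO group held 3 libraries with the genotype Zeb2 f/f; hGFAP-cre, in which every Zeb2 allele is floxed. The control group held 3 libraries with the genotype Zeb2 f/+; hGFAP-cre, so these animals also carried Cre and 1 floxed allele. hGFAP-cre places the recombinase under the human GFAP promoter, which is active in neural progenitors and the cells they give rise to, and the labels give no other allele or agent. The RNA came from whole cerebellum, and in such bulk samples more cells of a type and more RNA per cell cannot be told apart. The labels name libraries, not animals, and p-values therefore cover only the spread between libraries, which may be technical.

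An imprinted gene is read mainly from the copy inherited from the father or mainly from the copy inherited from the mother. DNA methylation set in the germ line marks the silent or active state at control regions, and most imprinted genes lie in clusters governed by such a region. Many of them act on fetal growth, as the growth factor gene Igf2 and the growth-restraining genes Igf2r, H19 and Cdkn1c do. Others are read strongly in the developing brain, among them the genes of the Prader-Willi and Angelman region (Snrpn, Ndn, Magel2, Ube3a). Some change allele with cell type: Ube3a is read from the maternal copy in neurons, and Grb10 from the paternal copy in neurons and the maternal copy elsewhere. The values here sum the reads of both copies, so none of them says which allele was read.

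No imprinted gene passed the test for a difference between cKO and control. Of the 38 imprinted loci that reached 1 FPKM (fragments scaled by transcript length and by the fragments of the library) in at least 3 of the 6 libraries, 0 had an adjusted p of at most 0.05 (limma on log2(FPKM + 1), Benjamini-Hochberg adjustment over all 13612 loci tested), against 0.573% of all loci tested. At an unadjusted p under 0.05 there were 8, of which 5 were higher and 3 lower in cKO; that is 21.1% of the 38, beside 17.6% of all loci (7.82% higher and 9.79% lower). In 8 of the 38 the cKO and control values did not overlap, 6 of them higher and 2 lower in cKO, which is 21.1% beside 23.9% of all loci (10.3% higher and 13.6% lower). Both shares lay near their background. H19, the maternally expressed long noncoding RNA beside Igf2, had the smallest p of the 38 members and was the single member called in any alternative analysis.

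The direction of the differences leaned to higher values in cKO without any locus passing the test. The log2 fold change (cKO minus control, of FPKM + 1) was above 0 in 29 of the 38 loci, or 76.3%, beside 47% of all loci tested, and its median was 0.06 for the imprinted loci and -0.01 for all loci. Over the other settings and with single libraries left out, between 63.2 and 80.6% of imprinted loci lay above 0. Several of these settings, as the covariates and the threshold, leave every fold change as it was and could not move the share. Of 24 further imprinted genes tested, outside the 43, only 11 lay above 0 (45.8%, median -0.02), so the lean of the 38 was not seen there; whether the sets differ was not tested. The 43 genes together made up 0.888, 0.939 and 0.954% of all FPKM in cKO 1, 2 and 3, and 0.831, 0.849 and 0.824% in controls 1, 2 and 3. The groups did not overlap in this share. Without Nnat and Gnas, which carried the highest levels, the shares were 0.363, 0.398 and 0.383% in cKO and 0.324, 0.349 and 0.361% in control, and still did not overlap. The summed FPKM behind these shares did overlap: the 43 genes summed to 4420, 4915 and 4953 FPKM in cKO and 4360, 4430 and 4295 FPKM in control. Without Nnat and Gnas the sums were 1806, 2080 and 1988 FPKM in cKO and 1701, 1821 and 1880 FPKM in control. The total of cKO 1, by which its share is divided, was the lowest of the 6. The libraries within a group differed as well: the lowest of the 6 values was found in control 1 for 12 of the 38 loci and in cKO 1 for 10, against 1 in cKO 3. The highest value was in cKO 2 for 12 loci and in cKO 3 for 12, against 4 in cKO 1.

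**Figure D1:**
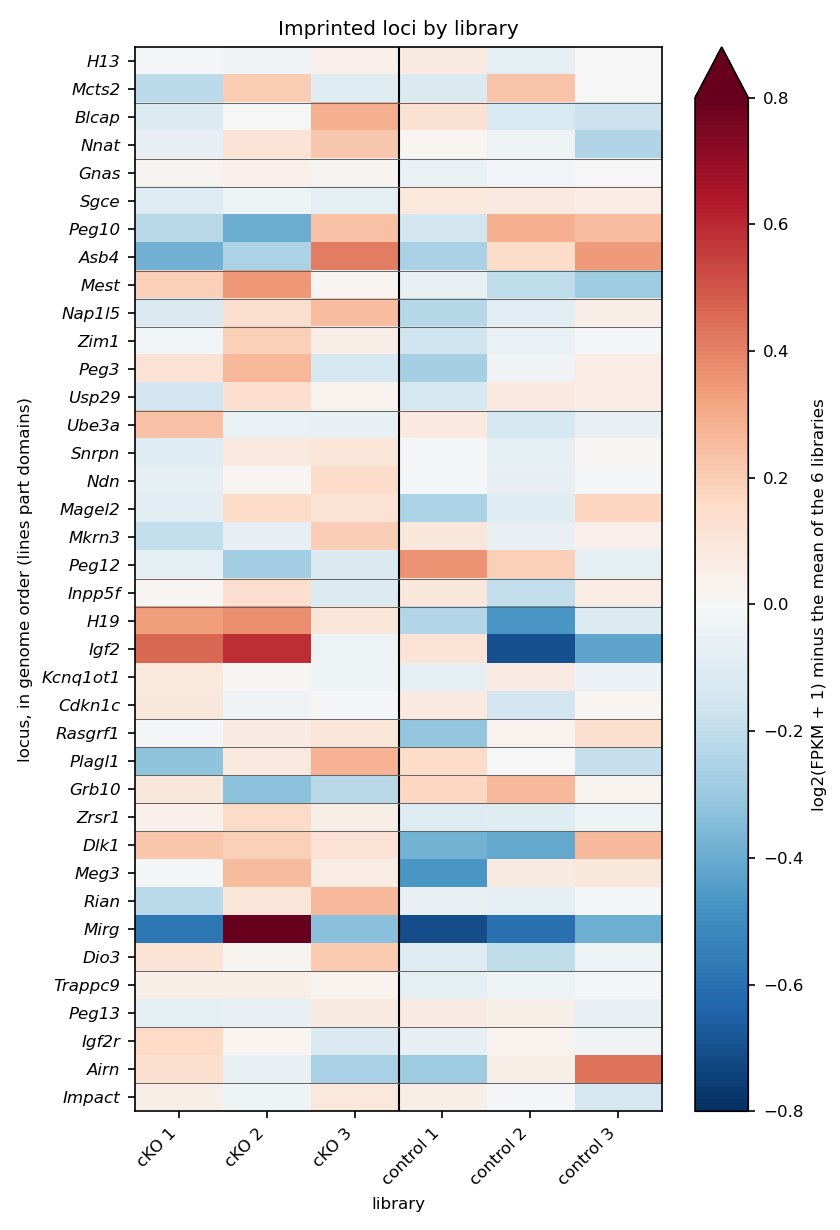
Level of each tested imprinted locus (rows, in genome order, lines between domains) in each library (columns, cKO left, control right), as log2(FPKM + 1) minus the mean of the 6 libraries. Igf2 and H19 were highest in cKO 1 and cKO 2, Mirg stood out in cKO 2 alone, and Peg10 and Asb4 were high in cKO 3 and control 3 and low in cKO 1, cKO 2 and control 1.

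Facts of the libraries touch these results. Their sums lay between 497542 and 524474 FPKM, and the read depth behind them is unknown. By their record numbers, control 3 and cKO 3 were taken as a second deposit, and the other libraries as the first. Zeb2 itself stood at 6.19, 3.89 and 5.81 FPKM in cKO and 11.4, 9.52 and 7.995 FPKM in control, with no overlap, a log2 fold change of -0.77 (SE 0.18) and an adjusted p of 0.107 (limma). Xist, the RNA of the inactive X chromosome, was at 143, 142 and 147 FPKM in cKO and at 0.331, 0.515 and 0.335 FPKM in control, and the Y-linked Eif2s3y at 0.027, 0.0947 and 0.108 FPKM in cKO and 34.4, 35.8 and 37.2 FPKM in control. Genotype and sex therefore cannot be told apart in any comparison given here. Processing sets were inferred, not read from a label, from the ratios between libraries of values above 0 and under 0.1 FPKM. Control 1 shared a pattern of such steps with cKO 3, and controls 2 and 3 shared another with cKO 1 and 2. In pairs that shared one, the densest window of 0.06 log2 held 24.2 to 32.9% of such loci, against 7.35 to 8.90% in other pairs. What made the patterns was not tested, and they are called processing sets here. Within these sets, the difference was above 0 in both for 18 of the 38 imprinted loci, below 0 in both for 3, and of opposite sign for 17. The 14 markers of cerebellar cells were all measured, with a summed level of 3013 to 3112 FPKM in cKO and 3168 to 3305 FPKM in control. Of these 14, 10 had a log2 fold change below 0 and 4 above it. At an unadjusted p under 0.05, 5 were lower and 0 higher in cKO (35.7% of the 14, beside 9.79% of all loci lower). Ptf1a, with the smallest p of the 14, averaged 1.57 FPKM in cKO and 3.66 FPKM in control. Slc1a3 and Gdf10, of Bergmann glia, averaged 160 and 54.7 FPKM in cKO and 269 and 115 FPKM in control. Atoh1 and Pax6, also among the 5 lower ones, averaged 8.65 and 78.0 FPKM in cKO and 12.0 and 98.5 FPKM in control. Fabp7 was level at 1581 FPKM in cKO and 1577 FPKM in control, and Pcp4 and Calb1, of Purkinje cells, were higher in every cKO library.

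**Figure D2:**
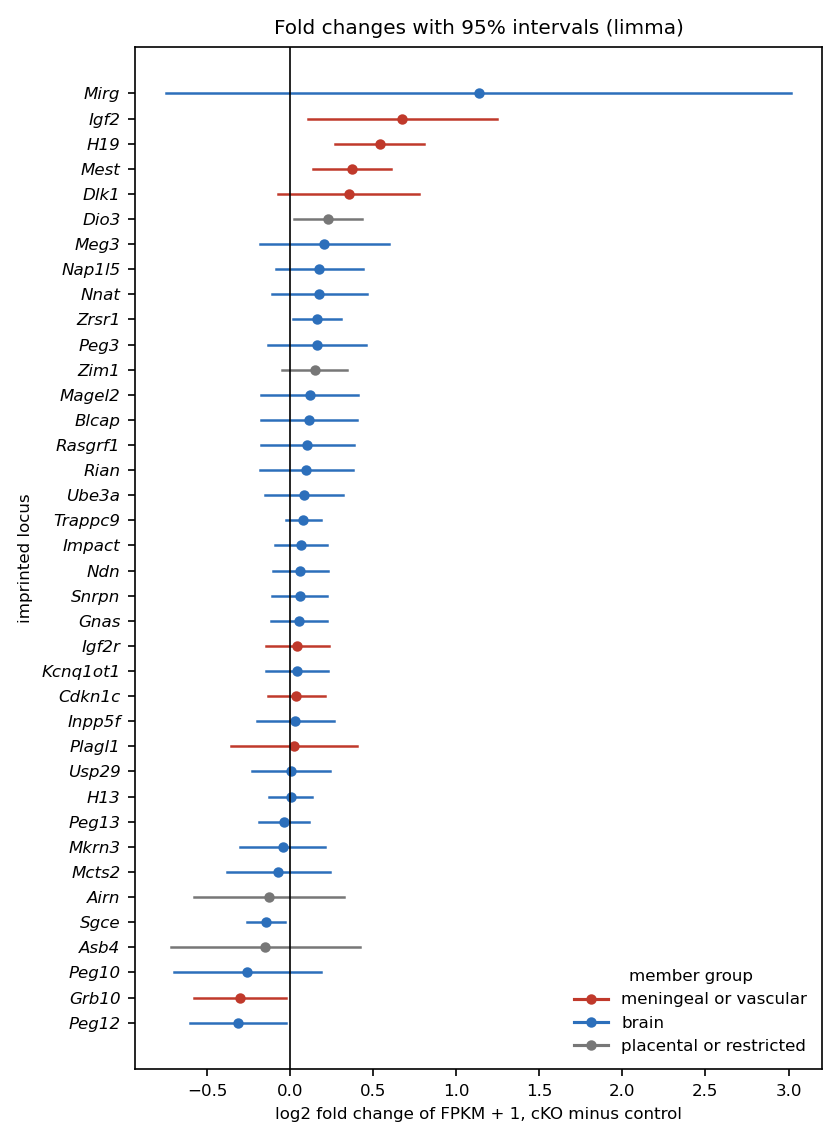
Log2 fold change of FPKM + 1, cKO minus control, for the 38 tested imprinted loci with 95% limma intervals, coloured by member group. The intervals of H19, Mest, Igf2, Dio3 and Zrsr1 lie above 0 and those of Sgce, Grb10 and Peg12 below 0 before adjustment, and Mirg has the widest interval.

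The first group held 9 growth genes that are known from meninges, vessels and other mesenchymal tissue. Of these, 8 were tested, 7 had a log2 fold change above 0 and 1 below it, the median was 0.20, and 3 were higher and 1 lower at an unadjusted p under 0.05 (beside 7.82% higher and 9.79% lower of all loci). H19 lies next to Igf2 on chromosome 7 (142575530 to 142578146, GRCm38) and shares its enhancers. H19 had 18.1, 18.5 and 15.2 FPKM in cKO and 11.8, 9.94 and 13.02 FPKM in control. Every cKO value lay above every control value, the means being 17.3 ± 1.82 FPKM in cKO and 11.6 ± 1.55 FPKM in control (SD, n = 3 each). The log2 fold change was 0.54 (SE 0.11, 95% interval 0.27 to 0.81) and the adjusted p 0.0904 (limma). It was 0.0374 when the 230 tested small-RNA loci were left out of the fit, where 2.46% of all loci were called (0.957% higher and 1.5% lower), and 0.0374 again with the processing set added, where 3.92% were called (1.59% higher and 2.32% lower). It ranged from 0.0315 to 0.266 over the alternatives. H19 was higher in cKO within each processing set, by 0.34 between cKO 3 and control 1 and by 0.64 between cKO 1 and 2 and controls 2 and 3 (log2).

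Igf2, the paternally expressed insulin-like growth factor (chromosome 7, 142650768 to 142666816), had 25.9, 28.5 and 18.04 FPKM in cKO and 20.1, 11.0 and 13.6 FPKM in control. The groups overlapped, because cKO 3 lay below control 1. The log2 fold change was 0.68 (SE 0.24, 95% interval 0.11 to 1.24) with an adjusted p of 0.224 (limma). Between the libraries of the second processing set alone it was 1.09, with an adjusted p of 0.0939 (limma), and in the first set cKO 3 lay below control 1 by 0.15 (log2 difference -0.15). Mest, a paternally expressed gene for a protein of the alpha/beta hydrolase fold (chromosome 6, 30733506 to 30748466), had 24.6, 27.6 and 21.7 FPKM in cKO and 20.5, 18.5 and 17.4 FPKM in control. Its groups did not overlap, and its log2 fold change was 0.37 (SE 0.10, 95% interval 0.13 to 0.60) with an adjusted p of 0.144 (limma). Between cKO 3 and control 1 Mest was higher by only 0.08, against 0.51 in the second processing set (log2). Dlk1, which encodes a membrane protein related to Notch ligands, had 4.74, 4.62 and 4.33 FPKM in cKO and 2.78, 2.71 and 4.89 FPKM in control. Control 3 was the highest of the 6 libraries and controls 1 and 2 the lowest, so the groups overlapped (log2 fold change 0.35, 95% interval -0.07 to 0.78). With single libraries left out the Dlk1 fold change ranged from 0.24 to 0.57, the highest without control 3, where the adjusted p was 0.0658 (limma).

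The other members of this group lay below 0 or close to it. Grb10, an adaptor that dampens insulin and IGF receptor signalling, had 30.2, 22.3 and 24.2 FPKM in cKO and 31.8, 34.1 and 28.9 FPKM in control. Its cKO 1 value lay above control 3, and its log2 fold change was -0.30 (SE 0.12) with an adjusted p of 0.253 (limma). Igf2r, the receptor that carries IGF2 to lysosomes, had 12.3, 11.0 and 9.98 FPKM in cKO and 10.4, 11.1 and 10.7 FPKM in control, with the control values inside the range of the cKO values. Cdkn1c, the cyclin-dependent kinase inhibitor p57, had 70.5, 64.7 and 65.8 FPKM in cKO and 69.9, 59.5 and 67.0 FPKM in control, and the 95% interval of its log2 fold change reached only from -0.14 to 0.21. Plagl1, a zinc finger factor known to regulate other imprinted genes, had 16.2, 21.7 and 25.1 FPKM in cKO and 22.9, 20.6 and 17.95 FPKM in control, with full overlap. Phlda2, a placental growth restrainer, was not tested: it had 0.238, 0.0696 and 0.132 FPKM in cKO and 0.115, 0 and 0.124 FPKM in control.

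Markers of meninges and vessels varied between the same libraries. The summed level of 14 meningeal fibroblast markers was 52.5, 83.7 and 31.1 FPKM in cKO and 50.1, 26.0 and 27.7 FPKM in control, highest in cKO 2 and, among the controls, in control 1. None of the 14 was at 0 in every library, and of the 11 tested, 10 had a log2 fold change above 0, 1 below it and 0 an adjusted p of at most 0.05, with 3 higher and 1 lower at an unadjusted p under 0.05 (36.4% of the 11, beside 17.6% of all loci). The median over these 11 was 0.71, and 2 were called higher with small-RNA loci left out. The markers did not share a single pattern. Col1a1, a subunit of fibrillar collagen, had 4.16, 6.88 and 1.21 FPKM in cKO and 2.75, 0.773 and 0.458 FPKM in control. Like Igf2 it was highest in cKO 2 and lower in cKO 3 than in control 1. The same held for the markers Col1a2, Col3a1, Dcn, Lum, Slc6a13 and Aldh1a2. The 4 markers with the smallest p separated the groups instead. Ptgds, a prostaglandin D synthase, had 3.31, 4.51 and 4.36 FPKM in cKO and 2.12, 0.954 and 1.54 FPKM in control (adjusted p 0.0732, or 0.0265 without small-RNA loci, limma). Cyp1b1, a cytochrome P450 gene, had 1.79, 2.58 and 1.71 FPKM in cKO and 0.944, 0.712 and 0.882 FPKM in control (adjusted p 0.0724, or 0.0286 without small-RNA loci, limma). Foxc1, a transcription factor of the meninges, was higher in every cKO library, with 1.35 to 1.52 FPKM in cKO and 0.855 to 1.07 FPKM in control. Islr, a secreted protein of stromal cells, was lower in every cKO library, with 11.2, 10.6 and 8.18 FPKM in cKO and 16.7, 12.4 and 13.8 FPKM in control. The summed level of 12 endothelial markers was 156, 156 and 146 FPKM in cKO and 129, 111 and 135 FPKM in control, with no overlap. In 11 of the 12 the log2 fold change was above 0. At an unadjusted p under 0.05, 4 were higher and 0 lower in cKO (33.3% of the 12, beside 7.82% higher and 9.79% lower of all loci). With small-RNA loci left out, 1 was called higher, where 0.957% of all loci were. In 3 the groups did not overlap, all higher in cKO (25%, beside 10.3% higher and 13.6% lower of all loci). The genes differed widely: Mfsd2a averaged 27.9 FPKM in cKO and 15.5 FPKM in control, and Kdr 9.90 FPKM in cKO and 9.89 FPKM in control. The 10 mural cell markers summed to 74.3, 69.9 and 63.1 FPKM in cKO and 64.97, 60.5 and 64.6 FPKM in control, and the 8 choroid plexus markers to 27.1, 50.8 and 35.6 FPKM in cKO and 35.2, 42.1 and 32.7 FPKM in control. These last 2 sums overlapped between the groups. Of the 9 mural cell markers tested, 8 had a log2 fold change above 0 and 1 below it. At an unadjusted p under 0.05, 2 of them were higher and 0 lower in cKO (22.2%, beside 17.6% of all loci). Of the 4 choroid plexus markers tested, 2 lay above 0 and 2 below it. Igf2 was thus, like the meningeal sum, lower in cKO 3 than in control 1, while H19 and Mest, like Ptgds, Cyp1b1, Foxc1 and the endothelial sum, were higher in every cKO library than in any control library. Yet Mest, as Igf2, was lowest among the cKO libraries in cKO 3 and highest among the controls in control 1. The part of meningeal and vascular cells in the values was not tested.

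**Figure D3:**
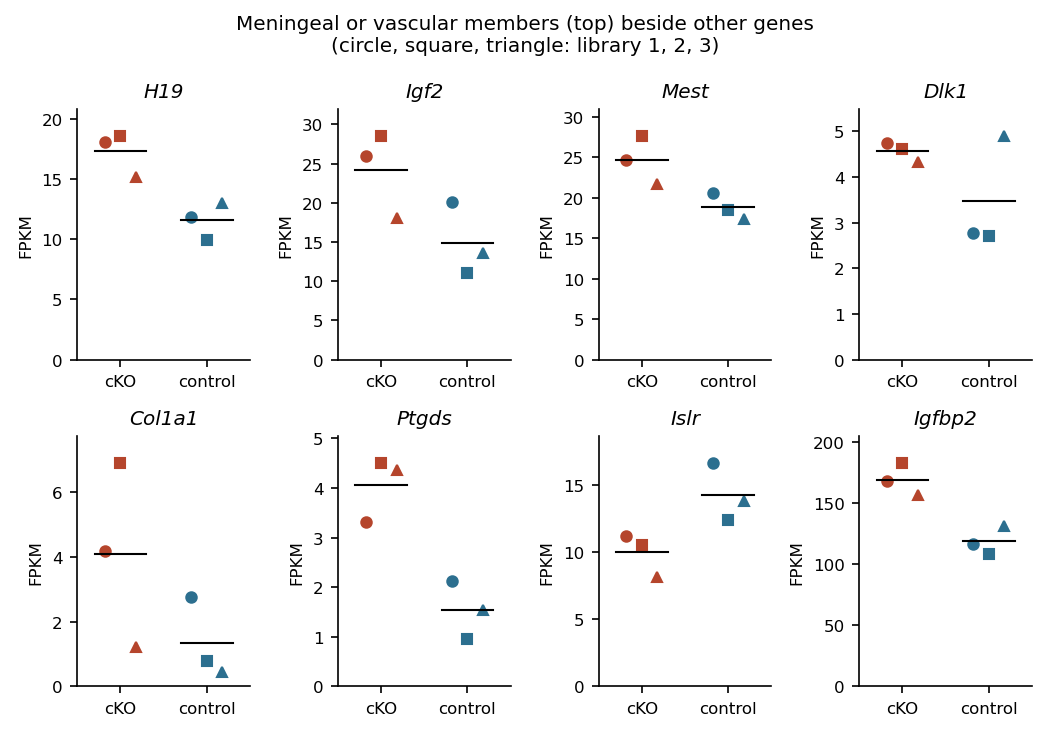
FPKM of H19, Igf2, Mest and Dlk1 (top) and of the meningeal markers Col1a1, Ptgds and Islr and of Igfbp2 (bottom) in the 3 cKO libraries (left) and the 3 control libraries (right), with the group mean as a bar. In Igf2 and Col1a1, control 1 stands above the other controls and cKO 3 below the other cKO libraries, while H19, Mest, Ptgds and Igfbp2 are higher and Islr lower in all 3 cKO libraries.

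Promoter sequence was looked up for the members because Zeb2 is known to bind CACCT boxes. RefSeq windows (GRCm38.p6) matched 35 of the 43 genes with 50 start sites, and the 250 bases before each start were searched on both strands. CACCT or its complement AGGTG was found in 27 of the 50 windows (54%) and in 46.0% of the 32851 windows of all genes. Counted by gene, it was in 23 of 35 members (65.7%) and 49.4% of 27025 genes. Genes differ in their number of windows, which the count by gene does not allow for. The longer form CACCTG or CAGGTG, which contains CACCT, was in 7 of the 50 windows (14%) and 17.2% of all windows. By gene it was in 7 of 35 members (20%) and 19.4% of all genes. Mest and Igf2, printed here as meningeal members with large differences for which a window was found, each hold a match in the window of 1 start site. Mest had 3 windows and Igf2 had 4. Impact, Peg13, Cdkn1c, Rtl1, Trappc9, Sgce, H19 and Peg10 were not among the windows. The capitals mark CACCTG at position -91 from the start in Mest (chr6:30733256-30733505, plus strand) and CACCT at -86 in Igf2 (chr7:142658805-142659054, minus strand); these windows have 7 and 22 CpG sites, against a median of 10 in member windows and 6 in all windows.
Mest: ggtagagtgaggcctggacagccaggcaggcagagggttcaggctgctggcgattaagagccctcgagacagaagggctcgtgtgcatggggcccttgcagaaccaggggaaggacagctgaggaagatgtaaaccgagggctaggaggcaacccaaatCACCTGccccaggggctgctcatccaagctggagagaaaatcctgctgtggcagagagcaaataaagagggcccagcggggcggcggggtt
Igf2: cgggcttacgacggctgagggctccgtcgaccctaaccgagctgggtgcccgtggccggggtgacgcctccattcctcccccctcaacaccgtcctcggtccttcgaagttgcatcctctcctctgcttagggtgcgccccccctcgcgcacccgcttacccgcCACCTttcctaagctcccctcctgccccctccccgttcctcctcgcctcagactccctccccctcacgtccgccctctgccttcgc

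The second group, read in brain, held 26 genes, and all 26 were tested. In 20 of them the log2 fold change was above 0 and in 6 below it, the median was 0.06, and 1 was higher and 2 lower at an unadjusted p under 0.05 (11.5% of the 26, beside 17.6% of all loci). Their levels spanned a wide range on the FPKM scale, from 1.26 FPKM for Kcnq1ot1 to 1711 FPKM for Nnat as means of the 6 libraries, and 6 had a mean above 100 FPKM. Nnat encodes neuronatin, a small membrane protein of the endoplasmic reticulum, and lies inside an intron of Blcap. Nnat had 1628, 1837 and 1979 FPKM in cKO and 1724, 1652 and 1443 FPKM in control, with overlap through cKO 1 (log2 fold change 0.18, 95% interval -0.11 to 0.46). Gnas, the gene of the stimulatory G protein alpha subunit, had 985, 998 and 986 FPKM in cKO and 935, 957 and 971 FPKM in control. All 3 cKO values lay above the controls, yet the log2 fold change was only 0.05 (95% interval -0.12 to 0.22) with an adjusted p of 0.752 (limma). Blcap, the host of Nnat, had 65.7, 70.8 and 86.9 FPKM in cKO and 77.4, 65.1 and 63.1 FPKM in control, and like Nnat was highest in cKO 3 and lowest in control 3.

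The members of the Prader-Willi and Angelman region on chromosome 7 stayed close between the groups. Snrpn, whose locus also carries Snurf and encodes a splicing protein of neurons, had 188, 213 and 215 FPKM in cKO and 198, 191 and 202 FPKM in control (log2 fold change 0.06, 95% interval -0.11 to 0.22). Ndn, which encodes the MAGE protein necdin, had 235, 251 and 274 FPKM in cKO and 245, 236 and 245 FPKM in control (log2 fold change 0.06, 95% interval -0.11 to 0.23). In both genes cKO 1 was the lowest of all libraries and cKO 3 the highest. Ube3a, a ubiquitin ligase whose human counterpart is lost in Angelman syndrome, had 15.8, 12.7 and 12.7 FPKM in cKO and 14.0, 11.9 and 12.7 FPKM in control, with overlap. Magel2, another MAGE gene, had 4.88 to 5.91 FPKM in cKO and 4.24 to 6.03 FPKM in control, and Mkrn3, a makorin RING finger gene, 5.05 to 6.95 FPKM in cKO and 5.67 to 6.39 FPKM in control. Peg12, an intronless gene related to the Wnt regulator Frat1, had the largest difference of the region, with 4.22, 3.55 and 4.08 FPKM in cKO and 6.07, 5.30 and 4.22 FPKM in control. Its groups were separate by a hair, 4.218 FPKM in cKO 1 against 4.22 FPKM in control 3, and the log2 fold change of -0.32 (SE 0.12) had an adjusted p of 0.253 (limma).

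The cluster between Dlk1 and Dio3 on chromosome 12 (109452485 to 110281097) holds maternally expressed noncoding RNAs and paternally expressed protein genes. Meg3, a long noncoding RNA, had 534, 642 and 561 FPKM in cKO and 389, 564 and 571 FPKM in control, so the groups differed mainly through a low control 1 (log2 fold change 0.20, 95% interval -0.18 to 0.59, and 0.024 without control 1). Rian, the host of a cluster of small nucleolar RNAs, had 175, 217 and 243 FPKM in cKO and 194, 192 and 201 FPKM in control, with the controls inside the cKO range. Mirg, the host of many miRNAs, had 6.49, 67.3 and 7.86 FPKM in cKO and 5.82, 6.37 and 7.54 FPKM in control. Its high mean in cKO rested on cKO 2: the log2 fold change was 1.13 (95% interval -0.75 to 3.01) and 0.11 without that library. Dio3, the deiodinase that inactivates thyroid hormone, was low with 1.63, 1.47 and 1.82 FPKM in cKO and 1.26, 1.11 and 1.38 FPKM in control, without overlap (log2 fold change 0.23, SE 0.09, adjusted p 0.245, limma). Rtl1, a paternally expressed gene derived from a retrotransposon, stayed under the limit for testing, with 0.387, 0.501 and 0.528 FPKM in cKO and 0.324, 0.429 and 0.508 FPKM in control.

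The rows of Meg3 and Mirg also name miRNAs, so their values cannot be assigned to the host RNA alone. The Mirg row names Mir369, Mir410 and Mir412, and the Meg3 row names Mir770 and Mir1906-2. RefSeq places Mir1906-2 on chromosome X (88759485 to 88759506) and its copy Mir1906-1, with the same mature sequence, inside Meg3 on chromosome 12 (109544588 to 109544609). The 9 mature sequences that these rows name are given here from RefSeq (GRCm38.p6) with the seed, bases 2 to 8, in capitals; the 9 seeds all differ.
miR-369-3p: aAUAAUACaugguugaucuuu
miR-369-5p: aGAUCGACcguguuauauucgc
miR-410-3p: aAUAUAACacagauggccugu
miR-410-5p: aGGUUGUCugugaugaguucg
miR-412-3p: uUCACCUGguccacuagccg
miR-412-5p: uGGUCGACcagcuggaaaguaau
miR-770-3p: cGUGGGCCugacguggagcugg
miR-770-5p: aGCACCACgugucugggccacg
miR-1906: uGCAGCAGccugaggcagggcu

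Small RNAs with rows of their own in this cluster were listed at 0 or at high values. The table has 70 loci between Dlk1 and Dio3, of which 61 are small RNAs, and 35 of these were at 0 in all 6 libraries. Only 2 were above 0 in every library, and 69 of their 366 values were above 0. The smallest value above 0 was 15.8 FPKM, the median of such values 73.7 FPKM and the highest 569 FPKM. The number of small-RNA loci above 0 was 10, 13 and 15 in cKO 1, 2 and 3 and 13, 8 and 10 in controls 1, 2 and 3, with overlap between the groups. At such short loci a value was either 0 or at least 15.8 FPKM. The adjusted p of H19 was smaller when all 230 tested small-RNA loci, 12 of them in this cluster, were left out of the fit. For some members it was larger, as for Sgce (0.196 and then 0.214, limma) and Trappc9 (0.403 and then 0.460, limma).

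**Figure D4:**
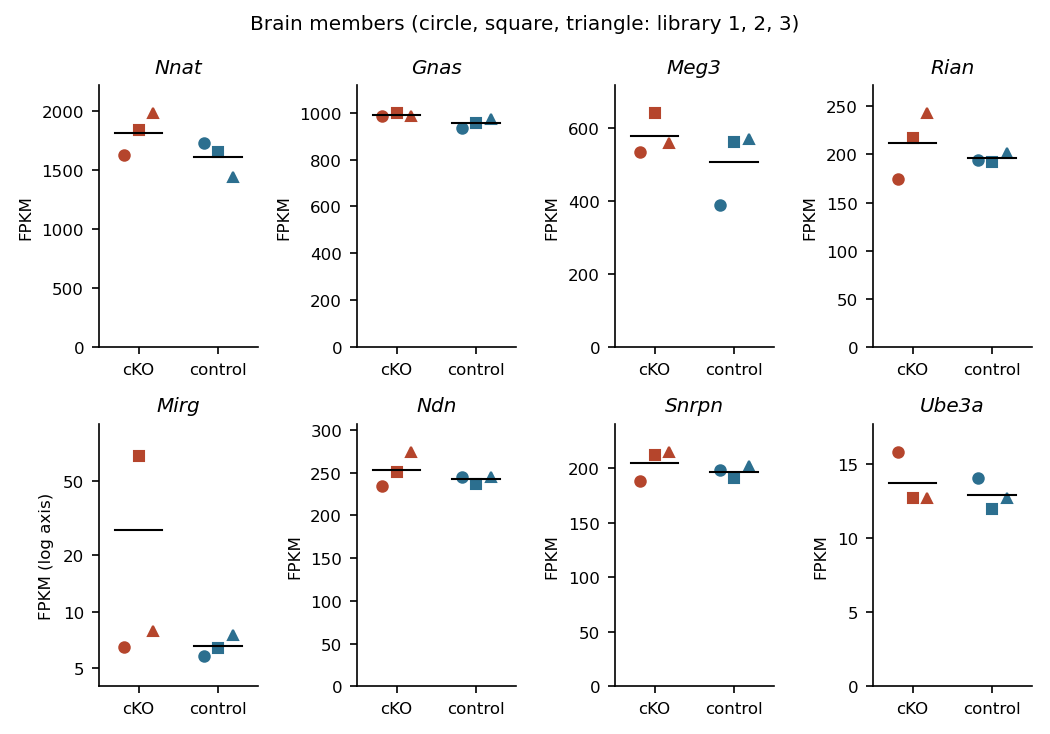
FPKM of 8 brain members (Nnat, Gnas, Meg3, Rian, Mirg, Ndn, Snrpn and Ube3a) in the 3 cKO libraries (left) and the 3 control libraries (right), with the group mean as a bar and a log axis for Mirg alone. The groups overlap in all but Gnas, and Mirg is high in cKO 2 only.

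Of the remaining brain members, Sgce and Zrsr1 had groups that did not overlap. Sgce, which encodes epsilon-sarcoglycan and whose human counterpart is a gene of myoclonus-dystonia, had 12.3, 12.9 and 12.6 FPKM in cKO and 14.1, 14.1 and 13.9 FPKM in control. The libraries within each group lay within 1 FPKM of each other, and the log2 fold change of -0.15 (SE 0.05) had an adjusted p of 0.196 (limma). Zrsr1, an intronless gene related to splicing factor genes, had 6.98, 7.61 and 7.00 FPKM in cKO and 6.23, 6.24 and 6.53 FPKM in control (log2 fold change 0.16, SE 0.06, adjusted p 0.243, limma). Trappc9, a subunit of a vesicle tethering complex, had 29.3, 29.3 and 28.9 FPKM in cKO and 27.0, 27.5 and 28.2 FPKM in control, also without overlap but with a log2 fold change of only 0.08. Peg13, a noncoding RNA inside Trappc9, had 70.3 to 78.0 FPKM in cKO and 71.0 to 77.7 FPKM in control. Trappc9 thus separated the groups, and Peg13 overlapped.

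Peg3, Usp29 and Zim1 form a cluster on chromosome 7. Peg3, a zinc finger gene known for maternal behaviour and growth, had 33.3, 37.1 and 27.8 FPKM in cKO and 25.3, 30.1 and 32.0 FPKM in control, with overlap (log2 fold change 0.16). Usp29, a ubiquitin protease gene, had 5.64 to 7.11 FPKM in cKO and 5.69 to 6.80 FPKM in control, and Zim1, a maternally expressed zinc finger gene, 3.32 to 3.99 FPKM in cKO and 2.92 to 3.35 FPKM in control. Nap1l5, of the nucleosome assembly protein family, had 41.1, 49.0 and 53.3 FPKM in cKO and 37.9, 42.0 and 46.4 FPKM in control, with overlap. The other brain members covered narrow ranges. Impact, an inhibitor of the GCN2 kinase, had 14.8 to 16.1 FPKM in cKO and 13.7 to 15.7 FPKM in control. Inpp5f, a phosphoinositide phosphatase gene, had 70.4 to 83.6 FPKM in cKO and 66.3 to 80.9 FPKM in control. Rasgrf1, an exchange factor for Ras, had 5.58 to 6.09 FPKM in cKO and 4.33 to 6.24 FPKM in control. All of these overlapped between the groups. H13, a signal peptide peptidase, had 39.6, 39.0 and 41.1 FPKM in cKO and 41.9, 37.8 and 40.0 FPKM in control, with a 95% interval of the log2 fold change from -0.13 to 0.13. Mcts2, the gene within an intron of H13, had 12.4 to 16.8 FPKM in cKO and 13.3 to 17.2 FPKM in control. Kcnq1ot1, the noncoding RNA that silences the Cdkn1c cluster on the paternal copy, had 1.199 to 1.39 FPKM in cKO and 1.14 to 1.36 FPKM in control. These also overlapped.

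Calcr, Peg10 and Asb4, neighbours of Sgce on chromosome 6, followed a pattern of single libraries. Peg10, a gene derived from a retrotransposon that placenta requires, had 8.14, 7.10 and 11.6 FPKM in cKO and 8.65, 12.0 and 11.7 FPKM in control (log2 fold change -0.26, 95% interval -0.70 to 0.18). It ranged from -0.44 to -0.12 with single libraries left out and had opposite signs in the processing sets, 0.38 between cKO 3 and control 1 and -0.58 in the second set. Asb4, an adaptor of ubiquitin ligases, had 1.52, 1.76 and 3.37 FPKM in cKO and 1.7504, 2.64 and 3.16 FPKM in control. Calcr, the calcitonin receptor, was not tested and had 0.0626, 0.238 and 0.786 FPKM in cKO and 0.605, 0.939 and 1.64 FPKM in control. In all of these genes, cKO 3 and controls 2 and 3 were higher than cKO 1, cKO 2 and control 1, whereas Sgce separated the groups. Th, the tyrosine hydroxylase of catecholamine neurons and also reported as imprinted, had 0.218, 0.167 and 1.04 FPKM in cKO and 0.526, 1.87 and 1.99 FPKM in control, the same split of libraries. Dbh, the dopamine beta-hydroxylase of noradrenergic neurons, named after its values were seen, had 0.326, 0.536 and 0.823 FPKM in cKO and 1.92, 4.45 and 6.78 FPKM in control. Dbh was lowest in cKO 1 and highest in control 3, its groups did not overlap, and its adjusted p was 0.0839 (limma). The part of such neurons in the values of Calcr, Peg10 and Asb4 was not tested.

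**Figure D5:**
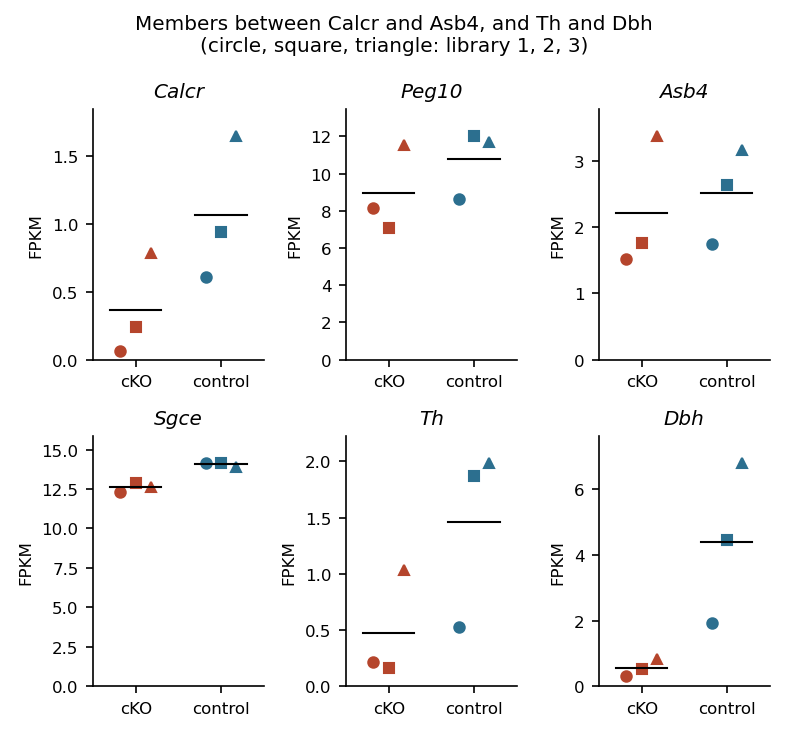
FPKM of Calcr, Peg10, Asb4 and Sgce, and of the catecholamine genes Th and Dbh, in the 3 cKO libraries (left) and the 3 control libraries (right), with the group mean as a bar. Calcr, Peg10, Asb4 and Th have cKO 3 and controls 2 and 3 above the other libraries, while Sgce and Dbh are lower in all 3 cKO libraries.

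The last group, of placental or otherwise restricted expression, held 8 genes, of which 4 were tested (Dio3, Zim1, Asb4 and Airn); 2 had a log2 fold change above 0 and 2 below it, with a median of 0.01. Airn, the paternally expressed antisense RNA that silences Igf2r on its own chromosome, had 3.85, 3.26 and 2.70 FPKM in cKO and 2.64, 3.58 and 4.99998 FPKM in control, with overlap. Ascl2, a transcription factor of the placenta, had 0.240, 0.184 and 0.221 FPKM in cKO and 0.362, 0.263 and 0.0471 FPKM in control. Slc22a18, a transporter gene, had 0.163, 0.114 and 0.148 FPKM in cKO and 0.135, 0.156 and 0.255 FPKM in control. Neither reached the limit for testing, and both overlapped. Many members overlap a neighbour in the genome, as Igf2r with Airn, Nnat with Blcap, Mcts2 with H13 and Peg13 with Trappc9, and the sources used here give no strand setting for the counting, so reads of such partners may be shared.

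Sorted by the allele from which each gene is known to be read, which was not measured here, both classes leaned the same way. Of the 24 paternally expressed loci tested, 17 had a log2 fold change above 0 and 7 below it (median 0.06), and of the 12 maternally expressed loci tested, 11 above 0 and 1 below it (median 0.09), beside 47% of all loci above 0. Among the maternal loci above 0, H13 lay at 0.0008. H13, Igf2r, Rian, Ube3a, Cdkn1c and Blcap turned below 0 in at least 1 alternative. Meg3, Rian and Mirg lie in the same cluster, and the Mirg difference rested on cKO 2. The paternal Plagl1, Impact, Usp29, Magel2, Inpp5f and Rasgrf1 also turned below 0. Asb4 (maternal) and Airn, Mcts2 and Mkrn3 (paternal) turned above it. At an unadjusted p under 0.05 there were 4 higher and 2 lower among the paternal and 1 higher and 0 lower among the maternal loci, which is 25% and 8.33% of the tested loci of each class, beside 17.6% of all loci. Neighbours of opposite allele could lie on the same side, as Igf2 (paternal) and H19 (maternal) did, or apart. Grb10 and Gnas, whose allele depends on tissue or transcript, had log2 fold changes of -0.30 and 0.05. Ube3a, which also changes allele with cell type, was counted among the maternal loci.

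Other genes of the same biology were taken from lists written beside the members. Of 36 further imprinted genes, 35 were found and 24 tested; 0 passed, and at an unadjusted p under 0.05 there were 4 higher and 2 lower in cKO (25% of the 24, beside 17.6% of all loci). Their log2 fold changes were above 0 in 11 and below 0 in 13. The 4 with the smallest p were all higher in cKO, and Pon2 and Chrac1 were the lower ones, with fold changes of -0.25 and -0.22 (log2). Zdbf2, a paternally expressed zinc finger gene, had 6.52, 5.31 and 4.85 FPKM in cKO and 3.05, 2.98 and 3.52 FPKM in control, without overlap (log2 fold change 0.64, SE 0.11, adjusted p 0.0667, or 0.0265 without small-RNA loci, limma). Gatm, the first enzyme of creatine synthesis, imprinted in mouse placenta, had 22.9, 21.1 and 21.4 FPKM in cKO and 14.6, 14.1 and 17.8 FPKM in control, without overlap (log2 fold change 0.47, SE 0.09, adjusted p 0.0788, or 0.0334 without small-RNA loci, limma). Kcnk9, a maternally expressed potassium channel gene beside Peg13, had 37.3, 42.8 and 39.5 FPKM in cKO and 32.1, 33.6 and 34.0 FPKM in control, and Begain, beside Dlk1, 22.4, 22.0 and 22.7 FPKM in cKO and 18.7, 19.7 and 20.4 FPKM in control. Both were without overlap, with adjusted p of 0.120 and 0.149 (limma).

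Of 26 genes that set or keep imprints, 23 were tested; 0 passed, while 8 were lower and 0 higher in cKO at an unadjusted p under 0.05, 34.8% of the 23 beside 9.79% of all loci lower, and the median log2 fold change was -0.08. Uhrf1, which brings the maintenance methyltransferase to newly copied DNA, had 27.8, 24.5 and 29.4 FPKM in cKO and 39.8, 40.7 and 36.9 FPKM in control. All cKO values lay below the controls (log2 fold change -0.51, SE 0.08, adjusted p 0.0537, or 0.0181 without small-RNA loci, limma). Hells, a chromatin remodeller needed for DNA methylation, had 8.70, 8.10 and 8.99 FPKM in cKO and 10.6, 11.5 and 10.2 FPKM in control, and Ezh2, the histone methyltransferase of Polycomb, 26.1, 23.3 and 25.5 FPKM in cKO and 30.3, 34.2 and 29.4 FPKM in control. Eed, its partner subunit, had 10.5, 9.87 and 11.5 FPKM in cKO and 13.3, 13.6 and 12.1 FPKM in control. All of these were separate between the groups, with adjusted p of 0.104 for Hells, 0.112 for Ezh2 and 0.1496 for Eed (limma).

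Of 20 genes of the IGF axis, 16 were tested and 0 passed, with 2 higher and 1 lower at an unadjusted p under 0.05 (18.8%, beside 17.6% of all loci) and a median log2 fold change of -0.01. Igfbp2, a binding protein of IGFs, had 168, 183 and 157 FPKM in cKO and 116, 108 and 132 FPKM in control, without overlap (log2 fold change 0.51, SE 0.09, adjusted p 0.0724, or 0.0265 without small-RNA loci, limma). Igfbp4, another binding protein, had 23.9, 28.4 and 20.7 FPKM in cKO and 20.7, 18.6 and 19.3 FPKM in control (adjusted p 0.242, limma), and the receptor gene Igf1r had 16.8, 16.2 and 13.9 FPKM in cKO and 14.8, 14.9 and 15.1 FPKM in control. Igfbp2 therefore separated the groups as H19 and Mest did, and Igf1r overlapped. The locus of Igf2bp1, an RNA-binding protein that binds Igf2 mRNA, also carries Mir3063 and had 2.55, 2.65 and 2.23 FPKM in cKO and 3.01, 44.1 and 108 FPKM in control. Its difference rests on controls 2 and 3, with an adjusted p of 0.240 (limma).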

How the data were processed

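RNA of whole cerebellum was extracted with Trizol and made into libraries with an Illumina TruSeq RNA kit, per the labels' protocols. Per the submitters' processing notes, the authors ran CASAVA, TopHat and Cufflinks on genome build mm10. The deposited values were read as FPKM per locus, a unit that no label names and that the locus names and values of Cufflinks output point to. The sources used here give no versions, annotation, strand setting, scaling or read depth, and unknown depth limits low values.

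Values were taken as log2(FPKM + 1), which understates fold changes of low genes. The test of cKO minus control was that of limma 3.58.1 in R 4.3.3 (trend, two-sided) on loci with at least 1 FPKM in 3 of 6 libraries, with Benjamini-Hochberg adjustment over all loci and a threshold of 0.05. Intervals are 95% limma intervals and are not adjusted. The fit was also run on simulated data of independent normal values. Those data held no processing sets and no small RNAs at 0 or high values, so they do not check the fit under these features. The members were set by symbol alone. The test was chosen, and the member groups and other lists were written from textbook knowledge, with earlier results of these data known. Libraries were mapped by title; the description of cKO 1 carries another number. Values in every library were given for members at an unadjusted p under 0.05, the 5 highest levels, the 5 largest fold changes and a fixed set of well-known members. Other members were given by values or ranges, and of the other lists up to 4 genes with the smallest p. Igf1r, Th, Dbh, Pon2, Chrac1, Col1a1 with the markers likened to it, and the cerebellar and endothelial markers were added after their values were seen. Alternatives covered the replicate block, deposit, processing set, libraries left out, pseudocounts, filters, scalings, small-RNA and sex-chromosome loci, weights (statmod 1.5.0), robust variance and the threshold. Coordinates and sequences are from RefSeq GRCm38.p6. Tables used pandas 2.3.3 and numpy 2.4.6 under Python 3.11.15, and figures matplotlib 3.10.9.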

Additional observations from a re-analysis of the deposited data

How the results depend on the processing

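Of the 38 imprinted loci, 22 kept their direction under every alternative run for them (23, or 22 for loci below a mean of 5 FPKM) and 16 turned in at least 1. Only the fits on fewer libraries, the pseudocounts, the scalings and the sample weights could change a fold change. The covariates, the replicate block, the filters, the loci left out, robust variance and the threshold left each fold change as it was. H19 alone of the members came to be called: 1 imprinted locus was higher with small-RNA loci left out, with the processing set added to that, with robust variance estimation and at a threshold of 0.1. The cause was not tested. The median log2 fold change of imprinted loci lay between 0.0602 and 0.0977 with single libraries left out, the highest without cKO 1. Over all loci, those called higher numbered 33 and those called lower 45. These became 4 and 11 with the replicate block, 8 and 14 with the deposit as a covariate, 8 and 22 in the second processing set, 12 and 16 with no filter, 8 and 22 with a mean FPKM of 5 or more, 128 and 201 without small-RNA loci, 213 and 311 with the processing set added, 130 and 206 with robust variance, and 158 and 251 at a threshold of 0.1. With single libraries left out they ranged from 7 to 29 (higher) and from 13 to 28 (lower). The replicate numbers gave correlations of deviations of -0.027, 0.037 and 0.049, so they were not taken to pair libraries, and the block called no imprinted locus. Turned log2 fold changes in the first deposit alone were -0.20 for Plagl1, 0.16 for Airn, -0.012 for Impact, -0.018 for H13 and -0.057 for Blcap. In the second processing set alone they were -0.031 for Plagl1, -0.015 for Rian, -0.078 for Usp29, -0.0094 for Magel2 and -0.051 for Rasgrf1, and with sample weights -0.00258 for Usp29. With single libraries left out, the ranges that crossed 0 were -0.11 to 0.19 for Plagl1, -0.00997 to 0.23 for Rian, -0.30 to 0.057 for Airn, -0.029 to 0.11 for Igf2r, -0.036 to 0.036 for H13, -0.19 to 0.024 for Mcts2, -0.00088 to 0.20 for Blcap, -0.39 to 0.0026 for Asb4, -0.066 to 0.082 for Usp29, -0.016 to 0.14 for Ube3a, -0.059 to 0.092 for Inpp5f, -0.15 to 0.042 for Mkrn3, -0.031 to 0.084 for Cdkn1c and -0.028 to 0.19 for Rasgrf1. Read depth is unknown, so no depth-based error could be given, and the 5 members under the filter have values only.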
